A study of Peromyscus maniculatus with 16 samples.

Results

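De novo lipogenesis is the synthesis of fatty acids from carbohydrate carbon, and the genes described here are the enzymes of that route and the transcription factors that drive it in the liver. They were chosen by name from the deposited table of read counts, in which 9 of the 10 symbols of the set were present: the regulators Srebf1 and Mlxipl and the enzymes Acly, Me1, Acaca, Acacb, Elovl6, Scd1 and Scd2. Fasn, the fatty acid synthase gene, was not among the symbols of the table and was not analysed here. All 9 passed the filter on low counts, out of 16910 genes in the table and 12639 past the filter.

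The pathway starts with citrate exported from mitochondria. ATP citrate lyase (Acly) turns it into cytosolic acetyl-CoA, acetyl-CoA carboxylase makes malonyl-CoA from it, and fatty acid synthase joins these units into palmitate with NADPH that malic enzyme (Me1) helps to supply. Elovl6 lengthens palmitate and the stearoyl-CoA desaturases introduce the double bond of oleate and palmitoleate. In the liver the transcription of these enzymes is known to respond to insulin through SREBP-1c, encoded by Srebf1, and to sugars through ChREBP, encoded by Mlxipl.

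Liver RNA was sequenced from 16 deer mice (Peromyscus maniculatus), outbred rodents that were 10 months old. The control group (C) held 6 males kept on chow, 5 of the BW stock (P. maniculatus bairdii) and 1 of the SM2 stock (P. maniculatus sonoriensis). The 10 animals on high fat diet (HFD), with 58 kcal% fat and sucrose, received it for 28 weeks and were sorted afterwards by liver histology into 5 without steatosis (NS, 4 BW males and 1 SM2 male) and 5 with steatosis (S, 1 BW male, 1 SM2 male and 3 BW females). Steatosis was thus an outcome and not a treatment, and all 3 females were in S. Animals are named by their numbers, with 10876 the SM2 animal of C, 10865 that of NS and 10880 that of S, and with 35955, 35982 and 35990 the females.

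Total counts ranged from 4640733 to 11349971 per animal, and every pair of animals within a group differed by more than sampling noise. Levels below are CPM (read counts relative to library size) scaled by TMM, edgeR's factor for library composition. They were compared between groups within a gene and not between genes, because gene length was not taken into account. Of 10 hepatocyte markers, 9 were in the table and all 9 were expressed, with summed levels of 45508 to 55250 CPM in C, 42414 to 70020 CPM in NS and 37124 to 54037 CPM in S. S animal 35990 had the lowest hepatocyte sum and the highest sum of 8 macrophage and Kupffer cell markers, 992 CPM against 148 to 571 CPM in the other 15 animals. S animal 36016 had the highest sum of 7 stellate cell markers, 2321 CPM against at most 528 CPM elsewhere, and 2057 CPM of it was Col1a1. Of the markers of 9 cell types, edgeR called 5 in S vs C, where 4.06% of all genes were called. They were Col1a1 (higher) and Dcn (lower) of 7 stellate cell markers, and S100a8 and S100a9 (lower) of 4 neutrophil markers tested. Tdo2, of 9 hepatocyte markers, was the other and was lower. Apart from 36016, Col1a1 had 3.71 to 10.0 CPM in S against 5.00 to 17.0 CPM in C. Apoa1, a hepatocyte marker, was higher in HFD vs C, where 0.522% of all genes were called higher. The part of these cell types in the results below was not tested. In a bulk tissue, fewer cells of a type and less RNA per cell cannot be told apart.

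The lipogenic genes together took a larger share of the library on HFD by their medians. Their summed counts made up 0.102 to 0.551% of all counts in C (median 0.168%), 0.309 to 0.925% in NS (median 0.668%) and 0.294 to 1.60% in S (median 1.00%). The ranges overlapped, since C animal 35975 stood above 2 NS and 2 S animals. Scd1 alone supplied 23.7 to 74.9% of the sum, with medians of 49.1% in C, 56.5% in NS and 55.7% in S. Without Scd1 the other 8 genes took 0.0638 to 0.138% of all counts in C, 0.134 to 0.420% in NS and 0.154 to 0.553% in S, and every S animal was then above every C animal. By group median, 7 genes were ordered C, NS, S from low to high, while Srebf1 and Me1 had their highest median in NS. Between the neighbours C and NS, and NS and S, no gene passed the test described below.

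**Figure D1:**
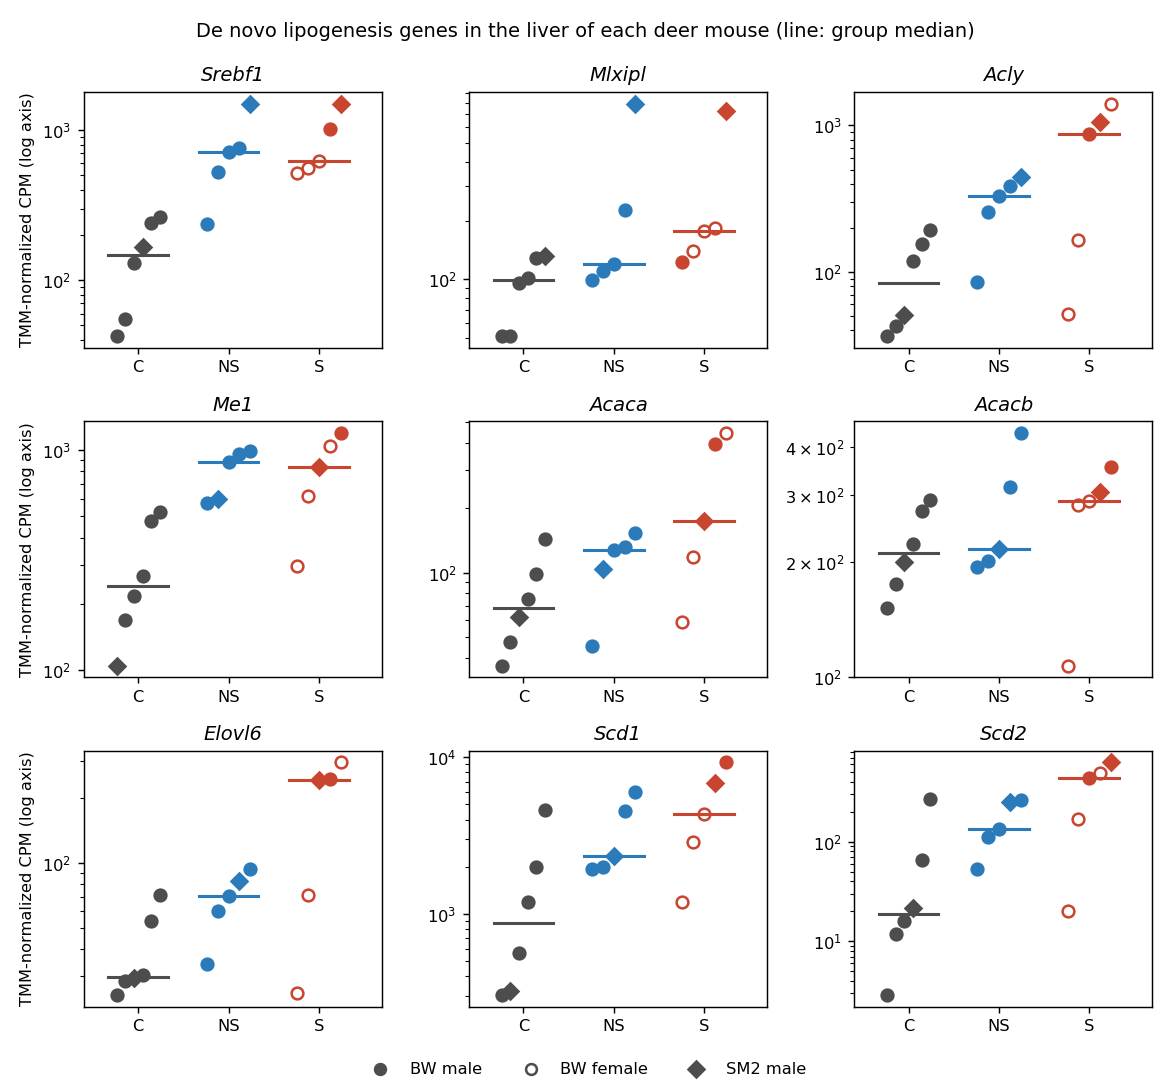
TMM-normalized CPM of the 9 lipogenic genes in each of the 16 livers, on log axes that differ between genes, with a line at the group median and symbols for stock and sex. For Srebf1 all 5 S animals lie above all 6 C animals, for Me1 all 5 NS animals do, and for Mlxipl the SM2 animals of NS and S stand far above the others.

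Srebf1 encodes the membrane-bound precursor of SREBP-1, which is cleaved to release the transcription factor. The count table does not separate its 1a and 1c transcripts. In C it lay between 42.4 and 263 CPM with a median of 148 CPM. The NS animals had 237, 526, 711, 762 and 1491 CPM and the S animals 521, 559, 626, 1011 and 1501 CPM. Every S animal was above every C animal, which held for 1.86% of all genes, and 4 of 5 NS animals were, with 35930 the exception. Srebf1 was 5.65-fold higher in S vs C (95% interval 2.75 to 11.6, adjusted p = 0.0198) and 4.99-fold higher in NS vs C (2.44 to 10.2), where the adjusted p of 0.140 missed the limit. Adjusted p-values are from edgeR's quasi-likelihood test over all 12639 genes, and a call required an adjusted p under 0.1 together with a change of 2-fold or more, the limits of the study. In NS vs C, Srebf1 was called without 35930, the lowest NS animal (log2 fold change 2.55, adjusted p = 0.0552), with stock as a covariate (2.14, adjusted p = 0.0653), with sex as a covariate (2.32, adjusted p = 0.0943) and by DESeq2 (2.32, adjusted p = 0.000716). NS and C held only males, so sex as a covariate bore on the spread and not on this fold change. No other omission of a single animal gave a call, and without SM2 animal 10865 the log2 fold change was 1.91.

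Mlxipl encodes ChREBP, which binds the promoters of glycolytic and lipogenic genes when sugar phosphates accumulate. It spanned 51.1 to 132 CPM in C, with a median of 98.7 CPM. The NS animals had 98.7, 111, 119, 228 and 795 CPM and the S animals 122, 139, 176, 184 and 726 CPM. In both HFD groups the highest value was that of the SM2 animal, and it was more than 3 times the next one. The difference from C was 2.89-fold in NS (95% interval 1.26 to 6.62, adjusted p = 0.513) and 2.88-fold in S (1.26 to 6.60, adjusted p = 0.118), neither of them called. The S vs C difference was called by DESeq2 (log2 fold change 1.53, adjusted p = 0.0887) and by edgeR in a fit of only the groups compared (1.53, adjusted p = 0.0820). It was also called with sex as covariate (2.18, adjusted p = 0.0686) and in males alone (2.18, adjusted p = 0.0965). All females were in S, so both settings compared the 2 male S animals with C. These males were the SM2 animal 10880, at 726 CPM, and 36016, at 122 CPM, inside the C range. The size of the difference moved with stock. Without NS animal 10865 the log2 fold change in NS vs C was 0.57, against 1.53 with it, and it was not called either way. With stock as a covariate the log2 fold change in S vs C was 1.08 and was called (adjusted p = 0.0485), and in the BW animals alone it was 0.86, under the 2-fold limit (adjusted p = 0.0930). Without NS animal 10865 the difference in S vs C was called at a log2 fold change of 1.53 (adjusted p = 0.0540), and without S animal 10880 it was 0.73.

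Acly supplies the cytosolic acetyl-CoA from which fatty acids are built. In C it ranged from 36.4 to 194 CPM with a median of 84.7 CPM. The NS animals had 85.6, 258, 331, 388 and 443 CPM, so that 4 of 5 exceeded every C animal. The S animals fell into a low pair, the females 35990 with 51.6 CPM and 35955 with 166 CPM, and a high trio of 869.7, 1058 and 1410.0 CPM that lay above every C and NS animal. Acly rose in S vs C by 7.13-fold (95% interval 2.64 to 19.2, adjusted p = 0.0358). It was 3.02-fold higher in NS vs C without passing the test (1.16 to 7.88, adjusted p = 0.579).

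Me1 encodes the cytosolic malic enzyme, which releases NADPH for fatty acid synthesis. Its C values ran from 105 to 524 CPM with a median of 241 CPM. All NS animals were higher, at 574, 597, 884, 958 and 989 CPM, a complete separation that 0.562% of all genes showed. Of the S animals, 4 were higher than every C animal, at 620.5, 834, 1039 and 1194 CPM, and 35990 was not, at 297 CPM. Me1 rose in S vs C by 2.73-fold (95% interval 1.56 to 4.78, adjusted p = 0.0476) and was called. In NS vs C it was 2.74-fold higher (1.56 to 4.80), with an adjusted p of 0.299 by edgeR that missed the limit and one of 0.0322 by DESeq2 that passed it. The call in S vs C was lost without S animal 36016, the highest (log2 fold change 1.26, adjusted p = 0.105).

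Of the carboxylases, Acaca was called in S vs C and Acacb was not, and the difference between them was not tested. Acaca encodes the cytosolic acetyl-CoA carboxylase that feeds fatty acid synthesis, and Acacb the form at the outer mitochondrial membrane whose malonyl-CoA restrains fatty acid oxidation. Acaca had 36.9 to 143 CPM in C (median 68.7 CPM), 45.7, 104, 128, 132 and 152 CPM in NS, and 58.6, 118, 174, 396 and 445 CPM in S. The 3 highest S animals were above every C and NS animal, and 35990 lay inside the C range. Acaca rose in S vs C by 3.09-fold (95% interval 1.58 to 6.06, adjusted p = 0.0564) and was 1.46-fold higher in NS vs C (0.750 to 2.84, adjusted p = 0.786). The call in S vs C was lost without S animal 35982 (log2 fold change 1.27, adjusted p = 0.129), S animal 36016 (1.37, adjusted p = 0.129), C animal 36001 (1.48, adjusted p = 0.111) or C animal 36007 (1.52, adjusted p = 0.118). Acacb ranged from 151 to 291 CPM in C, from 194 to 435 CPM in NS and from 107 to 355 CPM in S, and the groups overlapped throughout. Its fold was 1.24 in NS vs C (95% interval 0.829 to 1.86) and 1.22 in S vs C (0.815 to 1.83, adjusted p = 0.552), so a 2-fold rise lay outside both intervals. The ratio of Acaca to Acacb counts within an animal had medians of 0.370 in C, 0.481 in NS and 0.570 in S, and 2 S animals, 36016 and 35982, exceeded 1.

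Elovl6 elongates palmitate to stearate. It lay between 24.4 and 70.9 CPM in C, with a median of 29.7 CPM. The NS animals had 34.1, 60.1, 70.2, 82.4 and 94.1 CPM, and the S animals 24.9, 71.0, 243, 247 and 294 CPM. The same high trio of S animals as for Acly stood above all NS animals, while 35990 was at the bottom of the C range. Elovl6 rose in S vs C by 4.46-fold (95% interval 2.20 to 9.04, adjusted p = 0.0287). In NS vs C it was 1.73-fold higher (0.867 to 3.46, adjusted p = 0.688).

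Scd1 and Scd2 encode stearoyl-CoA desaturases, which make monounsaturated fatty acids. They are close paralogs, so the division of reads between them and other members of the family is uncertain. Scd1 had 304 to 4588 CPM in C, 1932 to 5987 CPM in NS and 1199 to 9272 CPM in S. C animal 35975, at 4588 CPM, was above 4 NS and 3 S animals. Scd2 had 2.88 to 271 CPM in C, 52.8 to 263 CPM in NS and 19.9 to 626 CPM in S, and 35975 was again the highest C animal. Scd1 was 3.28-fold higher in S vs C (95% interval 1.27 to 8.47, adjusted p = 0.124) and Scd2 5.37-fold higher (1.41 to 20.4, adjusted p = 0.123), and neither was called. Scd1 was 2.25-fold higher in NS vs C (0.880 to 5.75, adjusted p = 0.656) and Scd2 2.52-fold (0.684 to 9.25, adjusted p = 0.724). Without 35975 both were called in S vs C, Scd1 at a log2 fold change of 2.49 (adjusted p = 0.0610) and Scd2 at 3.87 (adjusted p = 0.0407). The log2 fold changes in NS vs C without it were 1.94 and 2.78, neither called. Without S animal 35990 both were also called in S vs C, at 1.97 (adjusted p = 0.0869) and 2.73 (adjusted p = 0.0788). With all animals, Scd2 was called in S vs C by DESeq2 (2.43, adjusted p = 0.0662). Scd1 was called there by edgeR with stock (1.85, adjusted p = 0.0943) or sex (2.43, adjusted p = 0.0722) as covariate and in males alone (2.43, adjusted p = 0.0898). With sex as covariate, as in males alone, only the male S animals were compared with C.

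In all, 5 of 9 genes rose in S vs C (Srebf1, Elovl6, Acly, Me1 and Acaca), where 3.09% of all genes tested were called higher. In NS vs C, edgeR called 0 of 9, where 0.0475% of all genes were called higher. At an unadjusted p under 0.05, 4 of 9 were higher in NS vs C (Me1, Srebf1, Acly and Mlxipl), against 5.32% of all genes, and DESeq2 called 2, Srebf1 and Me1, where it called 0.419% of all genes in either direction. All 9 log2 fold changes were above 0 in NS vs C, as were 50.8% of all genes, and all 9 were in S vs C, as were 57.8%. The comparisons share the C animals. The median of the 9 was 1.33 for NS vs C and 1.72 for S vs C, against 0.01 and 0.10 over all genes. The count in S vs C was 7 without S animal 35990 and 3 without S animal 36016. The former stood apart in the marker sums of several cell types, and the latter in that of stellate cells. It was also 7 without C animal 35975, and 4 without C animal 36001, C animal 36007 or S animal 35982. Over all genes the share called in S vs C, in either direction, was 4.06%, and it was 4.35% without 35990 and 1.97% without 36016. The calls over all genes numbered 513 with every animal and 245 without 36016. They numbered 219 without C animal 35975, 247 without C animal 36001 and 190 without C animal 36007. The part of the cell types in the result was not tested.

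**Figure D2:**
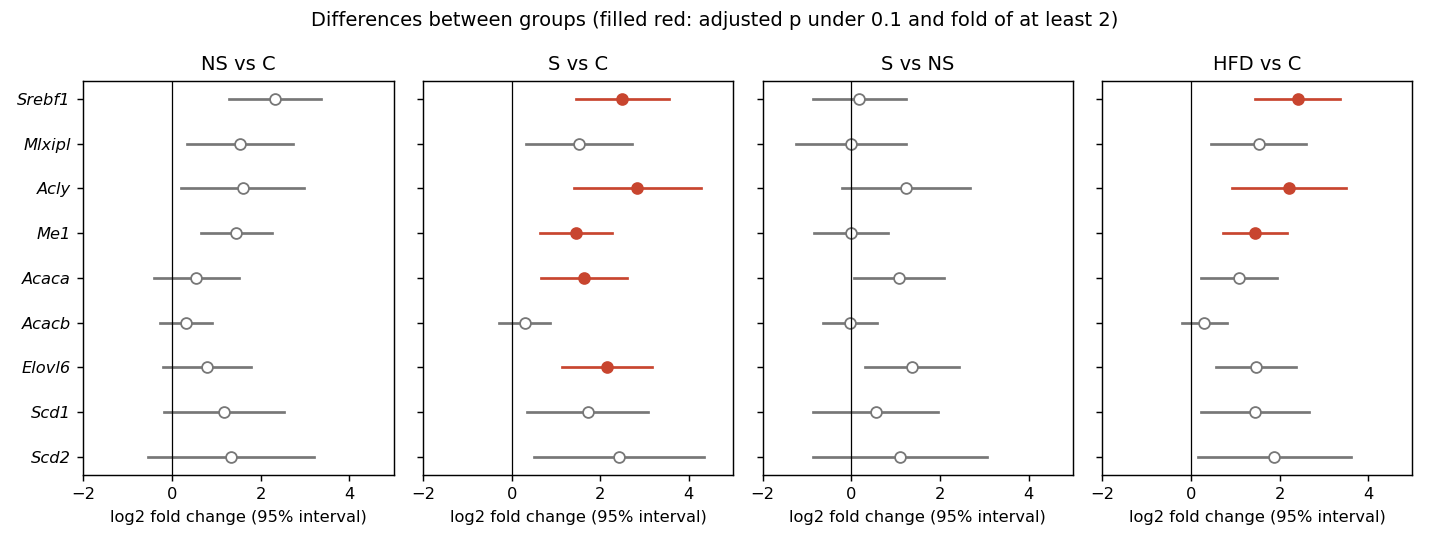
Log2 fold change of the 9 genes in each comparison with its 95% interval from edgeR, filled red where the gene was called. In S vs C 5 genes are red and Acacb lies nearest to 0, in NS vs C and S vs NS none is red, and in HFD vs C Srebf1, Acly and Me1 are.

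With the mean of NS and S set against C (HFD vs C), 3 of 9 genes were called higher, against 0.522% of all genes. Srebf1 rose 5.31-fold (95% interval 2.73 to 10.3, adjusted p = 0.0235), with 9 of 10 HFD animals above every C animal. Me1 rose 2.73-fold (1.65 to 4.52, adjusted p = 0.0596), also with 9 of 10 above every C animal, and Acly 4.64-fold (1.90 to 11.3, adjusted p = 0.0914), with 7 of 10. Elovl6 just missed the limit at 2.78-fold (1.49 to 5.20, adjusted p = 0.103), and the adjusted p was 0.145 for Mlxipl, 0.180 for Acaca, 0.209 for Scd1, 0.239 for Scd2 and 0.525 for Acacb. The call of Srebf1 held without any single animal. That of Me1 was lost without NS animal 35987 (log2 fold change 1.41, adjusted p = 0.106), C animal 35972 (1.38, adjusted p = 0.101) or C animal 36001 (1.42, adjusted p = 0.129), and the count of calls was then 1. Acly was kept only without 35930, 35955, 35990 or 35998, with adjusted p between 0.0390 and 0.214 over the 16 omissions.

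The comparison of S with NS asked whether the genes differed between steatotic and non-steatotic livers on the same diet, and it is also the test of the difference between S vs C and NS vs C. By edgeR 0 of 9 genes were called, as were 0.00791% of all genes in either direction. DESeq2 also called 0 of the 9, where it called 71 of the 12639 genes tested. At an unadjusted p under 0.05, 2 of 9 were higher in S, against 6.19% of all genes. They were Elovl6, 2.58-fold (95% interval 1.24 to 5.36, adjusted p = 0.374), and Acaca, 2.12-fold (1.05 to 4.28, adjusted p = 0.430), from edgeR's fit. Acly was 2.36-fold (0.863 to 6.45), Scd2 2.13-fold (0.545 to 8.36) and Scd1 1.46-fold (0.547 to 3.90), each with an interval that holds both no change and a change of 3-fold or more. The regulators and Me1 had folds close to 1, which were 1.13 for Srebf1 (0.546 to 2.35), 0.998 for Mlxipl (0.423 to 2.35) and 0.996 for Me1 (0.556 to 1.78). The intervals of Srebf1 and Mlxipl hold a 2-fold difference, and that of Me1 does not. The value of Mlxipl moved with the SM2 animals, to a log2 fold change of 0.96 without NS animal 10865 and of -0.80 without S animal 10880, neither called. The median log2 fold change of the 9 genes was 0.55, against 0.04 over all genes.

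All females were in S, so sex could be tested within S alone, 3 animals against 2. The females were all BW, while the males were 1 BW animal, 36016, and 1 SM2 animal, 10880, so a part of any difference cannot be told apart from stock. For Mlxipl the males had 122 and 726 CPM, the higher value in the SM2 animal, and the females 139 to 184 CPM. None of the 9 genes was called between female and male S animals, where 0.388% of all genes were called in either direction, and 0 passed an unadjusted p under 0.05, against 4.38% of all genes higher and 6.85% lower. All 9 log2 fold changes were below 0 (female minus male), with a median of -0.92 against -0.02 over all genes. Every female was below both males for Scd1, Srebf1 and Acacb, a separation that 9.53% of all genes showed in this direction. The largest difference was that of Scd1, with means of 2798 CPM in females and 8070 CPM in males (log2 fold change -1.53, SE 0.90, adjusted p = 0.564). The female 35982 was the highest of all animals for Acly, Acaca and Elovl6, and the female 35990 the lowest of S for 7 of the 9 genes.

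Set against the male S animals alone, 7 of 9 genes were higher than in C (Srebf1, Elovl6, Acly, Me1, Mlxipl, Acaca and Scd1), where 4.73% of all genes were called higher. One of these males was the SM2 animal. The male S animals were above every NS animal for Acly, Acaca, Elovl6, Scd1 and Scd2, as for 5.24% of all genes, but edgeR called 0 of 9 in male S vs NS, where 1.42% of all genes were called higher. An unadjusted p under 0.05 was reached by Elovl6 and Acaca, against 8.05% of all genes. When the females were left out of the fit altogether, Elovl6 was called in S vs NS, with a log2 fold change of 1.85 (adjusted p = 0.0452). In that fit 157 of all 12492 genes tested were called. The same contrast with the females in the fit gave Elovl6 an adjusted p of 0.172.

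Each group held 1 SM2 animal, so that the stocks could be compared with the group taken into account, 3 animals against 13. Mlxipl was called higher in SM2, 3.79-fold (95% interval 2.42 to 5.92, adjusted p = 0.000455), where 5.91% of all genes were called higher and 4.93% lower. Its SM2 values were 132 CPM in C, 795 CPM in NS and 726 CPM in S, against 51.1 to 129, 98.7 to 228 and 122 to 184 CPM in the BW animals of the same groups. The highest value of Srebf1 in NS and in S was also that of the SM2 animal, but the stock difference did not pass (log2 fold change 0.97, SE 0.43, adjusted p = 0.141). The other 7 genes had log2 differences between -0.59 (Me1) and 0.42 (Scd2), with adjusted p-values of 0.358 or more. In C the SM2 animal had the lowest Me1 of all animals, 105 CPM.

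The genes also varied together among animals of the same group. After the group mean of log2 CPM was subtracted, Pearson's r over the 16 animals was above 0 for 33 of 36 gene pairs, with a median of 0.47 and a range from -0.20 to 0.92. For 10 pairs the adjusted p of r was under 0.05 in a two-sided permutation test with 100000 resamples within groups, Benjamini-Hochberg adjusted over the 36 pairs, and for 8 pairs that of Spearman's rho was. Acly, Acaca and Elovl6 formed the tightest trio. Acly and Elovl6 had r = 0.92 and rho = 0.88 (adjusted permutation p = 0.00634 and 0.0138), and r = 0.81 without the 2 animals farthest from the median of centred Acly. Such animals were chosen on 1 gene of each pair, so they can differ between pairs. Acaca and Acly had r = 0.90 and rho = 0.81 (adjusted permutation p = 0.00252 and 0.0138), and r = 0.81 without those 2 animals. Acaca and Elovl6 had r = 0.88 and rho = 0.89 (adjusted permutation p = 0.00252 and 0.00216), and r = 0.78 without the same 2 animals.

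Scd1 varied with the trio at r between 0.70 and 0.74. The regulators correlated with each other, Srebf1 and Mlxipl at r = 0.74 and rho = 0.69 (adjusted permutation p = 0.00634 and 0.0260), and r = 0.72 without the 2 animals farthest for Srebf1. That choice did not use the Mlxipl values. Srebf1 correlated with 1 enzyme past the limit, Acly (r = 0.61, rho = 0.62, adjusted permutation p = 0.0317 and 0.0443). This pair missed the limit in the BW animals alone (adjusted permutation p = 0.0700) and when C animal 35998, 35972 or 36001, NS animal 35930 or S animal 35955 was left out (r = 0.53 to 0.59, adjusted permutation p = 0.0511 to 0.107). Mlxipl did so with none, its r with the enzymes lying between -0.18 and 0.42. Me1 had r = -0.20 with Srebf1 and r = -0.18 with Mlxipl, neither past the limit. The pairs of Elovl6 with Scd2 (r = 0.69) and with Me1 (r = 0.63) passed by r but not by rho. They fell to 0.29 without the 2 animals farthest for Scd2 and to 0.41 without the 2 farthest for Elovl6. In the BW animals alone 5 pairs passed, and the r of Srebf1 and Mlxipl was 0.69 there (adjusted permutation p = 0.162).

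S animal 35990 bore on these values. The mean of the standardized centred values of the 9 genes was lowest in it, at -1.73, with -0.77 in NS animal 35930 next and 0.90 in C animal 35975 highest. Without 35990, 6 pairs passed. Those of Scd1 with Acly and with Acaca did not (r = 0.61 for both, adjusted permutation p = 0.0932), nor did those of Elovl6 with Scd2 and with Me1. The 3 pairs of the trio kept an r of at least 0.82 without it. The same animal had the lowest hepatocyte marker sum and the highest sums for macrophages, lymphocytes, bile duct cells, adipocytes and sinusoidal endothelial cells. The part of these cell types in the correlations was not tested.

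**Figure D3:**
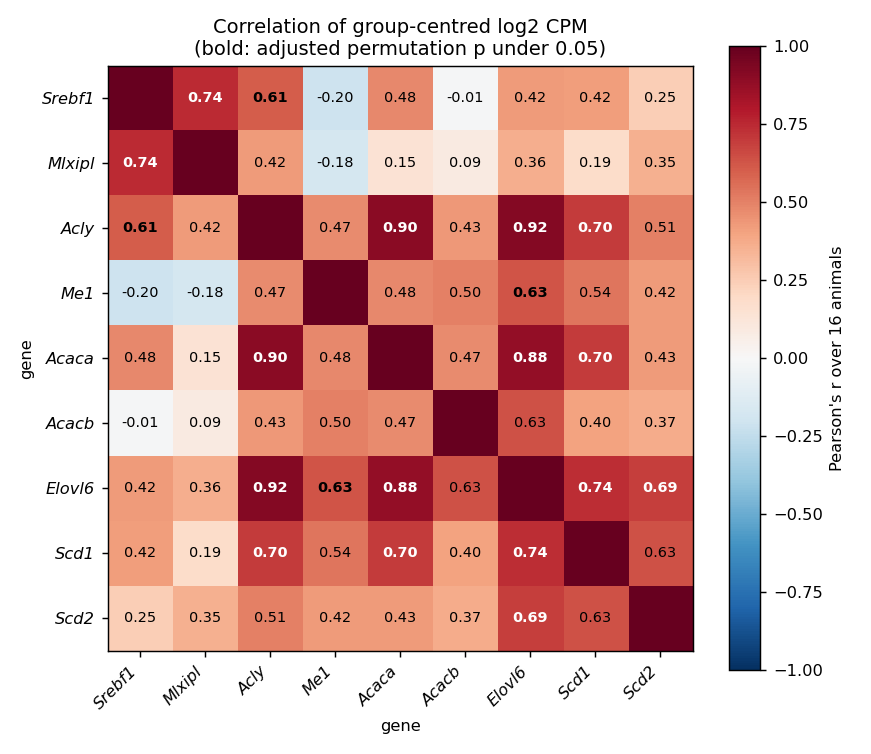
Pearson's r between the 9 genes over 16 animals after subtraction of the group mean of log2 CPM, in bold where the adjusted permutation p was under 0.05. The dark block of Acly, Acaca and Elovl6 reaches 0.88 to 0.92, Srebf1 and Mlxipl pair at 0.74, and the blue cells are those of Me1 with both regulators.

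Among the 6796 genes outside the set with a mean of at least 10 CPM, those most like the mean of the 9 over the 16 animals were Pklr (r = 0.94), Acsl5 (0.91), Pfkfb1 (0.90), Iqch (0.89) and Acss2 (0.89). These values are a description, from libraries that share their normalization. Pklr encodes the liver pyruvate kinase, Acsl5 an acyl-CoA synthetase, Pfkfb1 the liver enzyme that sets fructose 2,6-bisphosphate, and Acss2 the cytosolic acetyl-CoA synthetase. All were lower without 35990, with Iqch the lowest at 0.75.

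The wider pathway was read from 5 lists of 74 other genes, of which 68 were in the table and 67 were tested. In S vs C 2 of 67 were called, both higher, a share close to the 3.09% of all genes, and in HFD vs C 1 was, where 0.522% of all genes were. In NS vs C edgeR called 0, with 7 higher and 3 lower at an unadjusted p under 0.05 (5.32 and 2.97% of all genes). DESeq2 called 1 there, where it called 0.419% of all genes. In S vs NS edgeR and DESeq2 called 0, where they called 1 and 71 of all 12639 genes, and 0 had an unadjusted p under 0.05. The 67 genes had a median log2 fold change of 0.12 in NS vs C and of 0.13 in S vs C, against 0.01 and 0.10 over all genes.

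Of 9 tested genes for the supply of acetyl-CoA, citrate and NADPH, Pklr was called. It lay between 73.3 and 237 CPM in C, 259 and 517 CPM in NS and 101 and 972 CPM in S, so that NS did not overlap with C and S did. Pklr rose in S vs C (log2 fold change 2.31, SE 0.44, adjusted p = 0.0163) and in HFD vs C (1.97, SE 0.40, adjusted p = 0.0347, and 1.89 with an adjusted p of 0.102 without C animal 36007). In NS vs C it missed the limit (1.62, SE 0.44, adjusted p = 0.316) by edgeR and passed it by DESeq2. Mdh1, the cytosolic malate dehydrogenase, was lower on HFD, 740 to 991 CPM in C against 486 to 667 CPM in NS and 461 to 702 CPM in S. It had an adjusted p of 0.0347 in HFD vs C but a log2 fold change of -0.58, under the 2-fold limit.

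Among 11 genes that control acetyl-CoA carboxylase and malonyl-CoA, Mid1ip1, whose protein promotes polymerization of the carboxylase, was called in S vs C. It had 8.76 to 52.2 CPM in C, 23.5 to 121 CPM in NS and 42.8 to 184 CPM in S (log2 fold change 1.53, SE 0.49, adjusted p = 0.0820). The call was lost when any of 7 animals was left out, namely 10876, 35975, 36001 and 36007 of C and 10880, 35982 and 36016 of S, with log2 fold changes of 0.99 to 1.61 and adjusted p-values of 0.107 to 0.197. Thrsp, its paralog Spot 14, had a log2 fold change of 1.07 in S vs C (adjusted p = 0.111) and was called without 10876 (1.27, adjusted p = 0.0834) or 35990 (1.29, adjusted p = 0.0513). DESeq2 called it too (1.07, adjusted p = 0.0524). So did edgeR with stock (1.08, adjusted p = 0.0801) or sex (1.51, adjusted p = 0.0735) as covariate and in males alone (1.51, adjusted p = 0.0659). The sex covariate, like the males alone, left only the male S animals in the comparison with C.

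In the lists for SREBP processing, LXR and insulin signalling (16 tested) and for ChREBP partners and targets (12 tested), 0 genes were called by edgeR or by DESeq2 in the 4 comparisons, where 3.09% of all genes in S vs C and 0.522% in HFD vs C were called higher by edgeR. At an unadjusted p under 0.05 by edgeR, 2 genes of each list were higher in S vs C, where 13.1% of all genes were, and 0 were lower. Scap, the escort of SREBP, had a log2 fold change of 0.82 in S vs C (adjusted p = 0.0731) and Tkfc, a kinase of fructose metabolism, 0.78 (adjusted p = 0.0839), both under the 2-fold limit. Insig2, which retains SREBP in the endoplasmic reticulum, had -0.44 in HFD vs C (adjusted p = 0.279), and Txnip, a ChREBP target, -1.26 (adjusted p = 0.206). In the last list, of 19 tested genes of elongation, desaturation and fatty acid activation, 0 were called by edgeR or DESeq2, with 4 higher and 3 lower in S vs C at an unadjusted p under 0.05 by edgeR (13.1 and 10.7% of all genes). Elovl5, which elongates polyunsaturated fatty acids, had 0.96 in S vs C (adjusted p = 0.0222), just under the 2-fold limit, and passed both limits without C animal 35998 (1.00, adjusted p = 0.0227), C animal 35975 (1.01, adjusted p = 0.0407) or S animal 35990 (1.09, adjusted p = 0.0174). Cyb5a, the cytochrome b5 that donates electrons to the desaturases, had -0.73 (adjusted p = 0.0387).

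**Figure D4:**
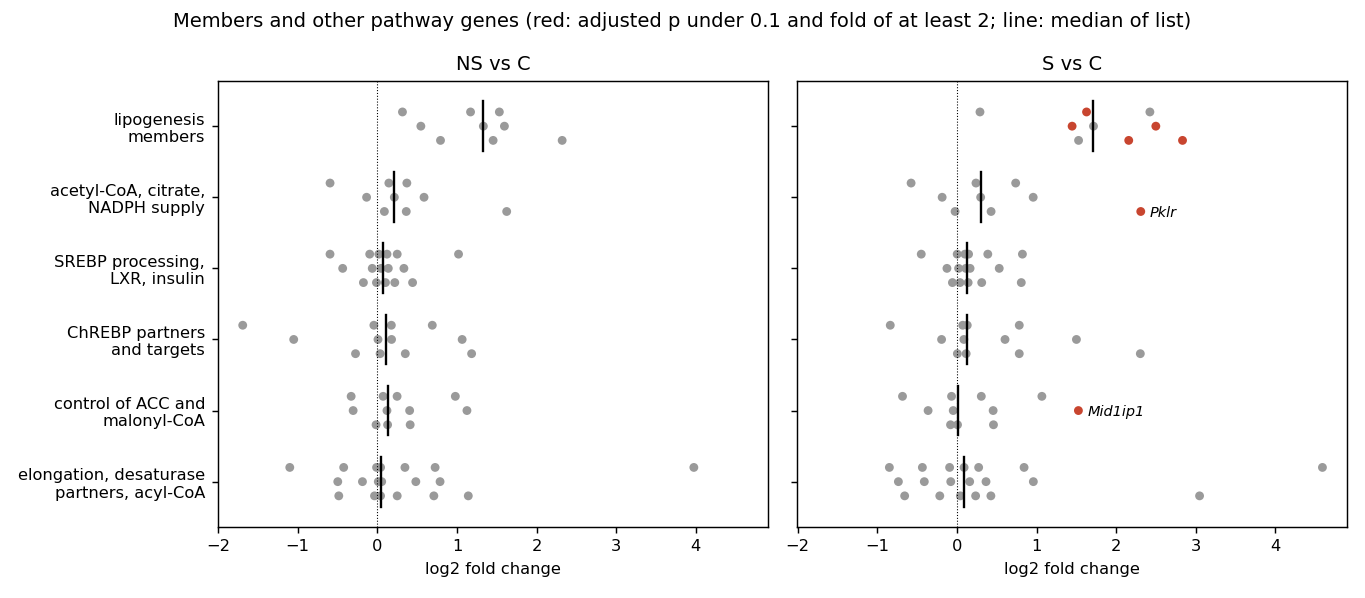
Log2 fold change of the 9 lipogenic genes and of the 67 tested genes of the 5 pathway lists in NS vs C and S vs C, red where called, with a line at the median of each list. The medians of the 9 genes (1.33 and 1.72) lie to the right of those of every list, and the grey points farthest to the right are Scd3 and, in S vs C, Scd4, which were low (means of 0.250 and 0.628 CPM in C).

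The study's measure of coordination, the composite correlation or Pc, was computed for each gene. It is the correlation between 2 groups of a gene's r with every other gene, so that a value near 1 means the same partners in both groups and a value below 0 opposite ones. With 5 or 6 animals per group each r is imprecise, and Pc has no test here. On the deposited counts, the 9 genes had Pc from -0.0561 (Scd1) to 0.328 (Mlxipl) in NS vs C, from -0.155 (Me1) to 0.318 (Acaca) in S vs C and from -0.184 (Scd1) to 0.483 (Mlxipl) in S vs NS. None lay below the study's limit of -0.2, against 2.92, 2.60 and 3.53% of all genes in the 3 comparisons. The recomputed Pc did not reproduce that of the study, which counted more genes under this limit each time. Its lowest average was that of S vs C, where the median over all genes was the highest here. These medians were 0.201 for S vs C, 0.174 for S vs NS and 0.102 for NS vs C. The limit need not mark the same genes as in the study, and the cause was not tested. The regulators and Scd2 had the highest values in S vs NS, 0.483 for Mlxipl, 0.432 for Srebf1 and 0.391 for Scd2. Without S animal 10880 they were -0.0270, -0.0540 and -0.0166. In S vs C, values below -0.2 appeared for Srebf1 (-0.262) and Mlxipl (-0.226) in the BW animals alone and for Me1 on CPM, with TMM scaling (-0.235) or without (-0.226). When single animals were omitted, the lowest value was below -0.2 for Me1 in NS vs C (-0.223), S vs C (-0.250) and S vs NS (-0.209), for Srebf1 in S vs C (-0.218) and for Scd1 in S vs NS (-0.282).

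**Figure D5:**
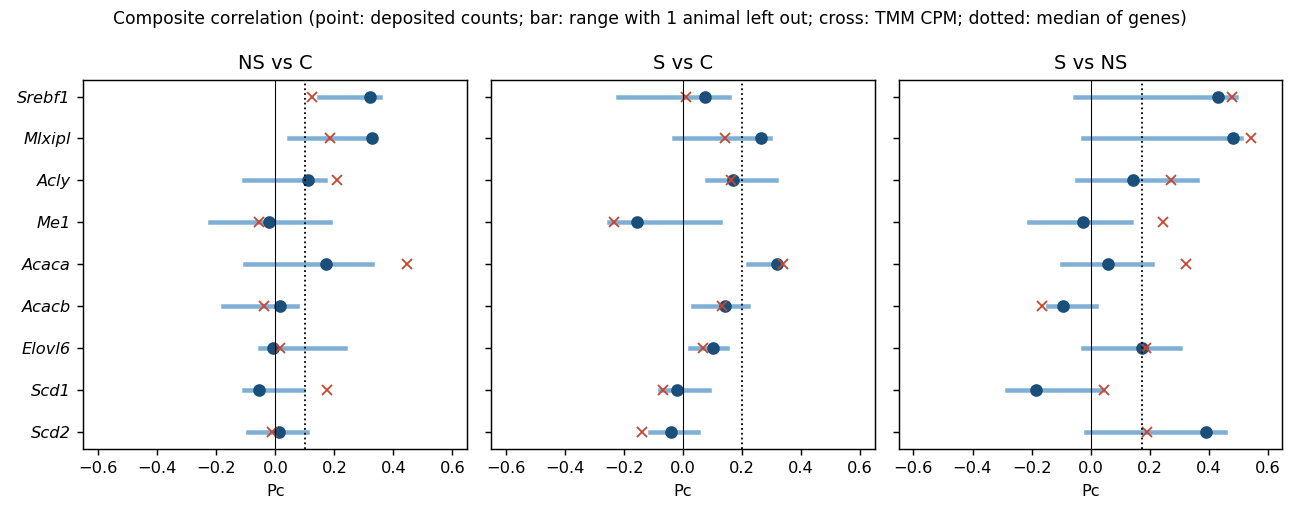
Pc of the 9 genes in each comparison on the deposited counts (points), its range when 1 animal is left out (bars), its value on TMM-normalized CPM (crosses) and the median of all genes (dotted line). The bars of Srebf1, Mlxipl and Scd2 in S vs NS reach from below 0 to 0.454 or more.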

How the data were processed

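Per the labels and the study's methods, RNA libraries made with a directional kit from 16 livers were sequenced as paired ends. STAR 2.7.2 was used by the authors for alignment to the HU_Pman_2.1 assembly, and featureCounts, with genes as Ensembl annotates them, for counting the reads that mapped uniquely. The deposited values are raw read counts per gene symbol, without normalization. The strand setting and the conversion to symbols are not given in the sources used here, so overlapping genes and close paralogs are uncertain. All 16 columns were mapped to an animal, and 0 rows named no gene. No genome of that assembly was used here, so no coordinates or sequences are given.

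Groups, stock and sex came from the labels, and each animal was 1 replicate (lowest chi-square per degree of freedom within a group 25.3, between C animals 35972 and 35975). Genes that reached 0.5 CPM in 1 or more animals were tested with TMM normalization in 1 fit of all animals (R 4.3.3, edgeR 4.0.16, which uses limma 3.58.1). HFD vs C contrasts the mean of NS and S with C. Standard errors were log2 fold change divided by the root of F. Sex was tested in a fit with male and female S apart, and stock in a fit with group as covariate. Correlations used log2 CPM with a prior count of 2, and were computed with numpy 2.4.6, scipy 1.17.1 and pandas 2.3.3 under Python 3.11.15, and matplotlib 3.10.9 drew the figures. The edgeR calls, correlations and Pc were tested on simulated data.

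Every gene of the set present in the table was named. Of the pathway lists, genes called in NS vs C, S vs C, S vs NS or HFD vs C and the 2 per list with the smallest p in HFD vs C were named, together with the 5 genes outside the set most like it. The set, the lists and the tests were chosen with earlier results of these data known. Alternatives were RLE size factors, DESeq2 1.42.0, other filters on low counts, other limits, fits of only the groups compared, stock or sex as covariate, BW or male animals alone, uncentred values, other scalings and each animal left out in turn.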

Additional observations from a re-analysis of the deposited data

Results flagged for a closer look

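Of 27 combinations of a gene and a group, 3 held an animal far from the rest. In each, its gap to the nearest neighbour was large for the range of the group (Dixon's test at 95% on CPM). For normally distributed values that test flags about 1 in 20 groups by chance. CPM were taken without logs and can be skewed, so this rate need not hold here. Mlxipl in NS was 795 CPM in animal 10865, and the gap made up 0.815 of the group's range. Mlxipl in S was 726 CPM in animal 10880, with a gap of 0.897 of the range. Both animals are of the SM2 stock, and in C the SM2 animal 10876 was also the highest, at 132 CPM. Scd2 in C was 271 CPM in BW animal 35975, with a gap of 0.766 of the range, and this animal had the highest Scd1, Elovl6 and Me1 of its group as well. Without 35975 the log2 fold change of Scd2 was 3.87 in S vs C and 3.33 in HFD vs C, and it was called in both (adjusted p = 0.0407 and 0.0897 by edgeR).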

How the results depend on the processing

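No paired analysis was possible because the labels give no replicate numbers that the groups share. Of the log2 fold changes under all alternatives, 1529 kept their direction and side of the limits, 60 gained the call, 32 lost it and 29 changed sign, all 29 in S vs NS. Over all genes 9 were called in NS vs C, 53 by DESeq2, 29 with stock and 13 with sex as covariate, and 2 to 29 with each animal left out. Genes of the set called in NS vs C numbered 0, but 2 by DESeq2, 1 with stock and 1 with sex as covariate, and 0 to 1 with each animal left out. In S vs C they numbered 5, but 7 by DESeq2, 7 with stock and 7 with sex as covariate, and 7 in males alone. Since all females were in S, sex as covariate and males alone both rest on the male S animals in every comparison that includes S. They numbered 6 in fits of only the groups compared, 4 at an adjusted p under 0.05, and 3 to 7 with each animal left out. Over all genes 513 were called in S vs C, 550 by DESeq2, 659 with stock and 768 with sex as covariate. These numbered 679 in males alone, 394 in fits of only the groups compared, and 190 to 573 with each animal left out. Genes of the set called in S vs NS numbered 0, and 1 in males alone, where 157 of all 12492 genes tested were called. Those called in HFD vs C numbered 3, but 6 by DESeq2, 5 with stock and 5 with sex as covariate, and 1 in BW animals alone. They numbered 4 in males alone, 2 in a fit with both HFD groups as 1, 1 at an adjusted p under 0.05, and 1 to 5 with each animal left out. Over all genes 113 were called in HFD vs C, 240 by DESeq2, 231 with stock and 228 with sex as covariate. These numbered 77 in BW animals alone, 142 in males alone, and 36 to 236 with each animal left out. Called genes of the other lists in NS vs C numbered 0, but 1 by DESeq2, 1 in fits of only the groups compared, 1 in males alone, and 0 to 1 with each animal left out. In S vs C they numbered 2, but 3 by DESeq2, 6 with stock and 7 with sex as covariate, 1 in BW animals alone and 7 in males alone. They numbered 7 with no limit on the fold, 1 at an adjusted p under 0.05, and 1 to 8 with each animal left out. In HFD vs C they numbered 1, but 3 by DESeq2, 3 with stock and 3 with sex as covariate, 2 in males alone, 4 with no limit on the fold, and 0 to 2 with each animal left out. The 10 correlated pairs became 26 without centring, 5 in BW animals alone, and 6 to 12 with each animal left out.

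The sign changes in S vs NS were of values near 0. Acacb was 0.28 with sex as covariate and 0.28 in males alone, and -0.14 to 0.21 with each animal left out. Srebf1 was -0.13 to 0.59 with each animal left out. Mlxipl was 0.00025 in a fit of only the groups compared, 0.0869 with stock and 0.65 with sex as covariate, 0.18 in BW animals alone, 0.65 in males alone and -0.80 to 0.96 with each animal left out. Me1 was 0.0117 with RLE factors, 0.0119 by DESeq2, 0.0149 at 1 CPM in 5 animals, 0.00672 in a fit of only the groups compared, 0.0342 with stock and 0.34 with sex as covariate, 0.34 in males alone and -0.19 to 0.20 with each animal left out. Within the set, Srebf1, Elovl6 and Acly kept their call in S vs C and Srebf1 in HFD vs C under every alternative run. In HFD vs C in BW animals alone, Acly (1.90, adjusted p = 0.195) and Me1 (1.31, adjusted p = 0.103) were not called. Under other scalings or in BW animals alone, 10 values of Pc moved by more than their jackknife error. Among them were those of Srebf1 and Mlxipl in S vs C in BW animals alone (-0.262 and -0.226). That error is computed from the omissions of single animals, so the omissions could not be judged against it. Apart from what the fewer animals or genes of an alternative bring about, the cause was not tested.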

Other observations

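A desaturase paralog that the comparisons did not turn on separated the stocks. Scd3, listed as another stearoyl-CoA desaturase gene, had 13 counts in C animal 10876, 184 in NS animal 10865 and 282 in S animal 10880, the SM2 animals, and 0 to 3 counts in each of the 13 BW animals. In CPM these were 1.28, 23.2 and 34.4 against at most 0.563. The BW animals were at the floor of 3 counts or fewer, so no fold is given (adjusted p = 2.84e-07 for SM2 vs BW by edgeR, with the group taken into account). All reads were aligned to a single reference assembly, and counts of close paralogs are uncertain. The gene was chosen after its values were seen.

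Of the 67 tested genes of the pathway lists, Scd3 included, 4 were called higher in SM2 and 1 lower, shares that do not stand out from the 5.91% and 4.93% of all genes. Mecr, of mitochondrial fatty acid synthesis, was higher in SM2, at 55.0 to 81.3 CPM against 2.11 to 41.7 CPM in BW (log2 fold change 1.58, SE 0.51, adjusted p = 0.0467). Mid1ip1 was higher by 1.14 (SE 0.41, adjusted p = 0.0731) and Prkab2, a subunit of the kinase that inhibits the carboxylases, by 1.44 (SE 0.49, adjusted p = 0.0570), and Ppargc1b, a coactivator of SREBP, was lower at -1.17 (SE 0.36, adjusted p = 0.0362). The ranges of the stocks overlapped for these 3 genes, and the level of Prkab2 was at most 2.56 CPM. These genes were named after their values were seen.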
